A study of Mus musculus with 9 samples.

Results

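The nuclear factor kappa B (NF-kB) transcription factors and their inhibitors were followed in B16F10 cells, a mouse melanoma line, after guides against Tada2b. The 10 genes were chosen by name, with earlier results of these data known. Nfkb1, Nfkb2, Rel, Rela and Relb encode the DNA-binding subunits. Nfkbia, Nfkbib, Nfkbie, Nfkbiz and Bcl3 encode inhibitor of kappa B (IkB) proteins. These members are 10 of the 54752 gene rows in the count table, and all 10 passed the filter on low counts. RNA was sequenced from 9 libraries in 3 groups of 3. GFPsg cells, with a guide named for GFP, carry the genotype label WT, and Tada2bsg1 and Tada2bsg2 cells, with guide 1 or guide 2, carry the label Tada2b knockout. No drug or cytokine treatment is named for any group, and all were cultured in DMEM with serum. Whether the cells of a guide were 1 clone or a pool, and whether the 3 libraries of a group came from separate cultures, is not given in the sources used here, so that p-values measure the spread between these libraries, which may be technical.

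NF-kB factors are dimers of subunits that share the Rel homology domain. In resting cells IkB proteins hold the dimers in the cytoplasm, and the IKK kinase complex, switched on by cytokine and pattern-recognition receptors, marks IkB for destruction and frees them. Rela, Rel and Relb carry transactivation domains, whereas p50 and p52, which are processed from the Nfkb1 product p105 and the Nfkb2 product p100, do not. The Tada2b protein belongs to SAGA, a complex that acetylates histones and assists transcription factors. Several NF-kB and IkB genes are textbook targets of NF-kB itself, in feedback loops, and melanoma cells are known for NF-kB activity.

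Since kB sites in the members' own promoters are the known route of that feedback, the promoters are shown first. RefSeq windows from 250 bases before to 50 bases after a transcript start (build GRCm38.p6) matched 7 of the 10 members, in 9 windows. Nfkb1, Relb and Nfkbiz had no window and were not searched. The windows were searched on both strands for the kB consensus, for the interferon element core TTCNNTTTC (ISRE) and for the STAT element TTCNNNGAA (GAS). The kB consensus was found in 8.46% of all 32851 windows of 300 bases, the ISRE core in 8.56% and the GAS in 8.30%. Among the members, Nfkb2, Rel, Bcl3, Nfkbia and Nfkbie (5 of 7) held a kB match, and 7 of the 9 member windows did. The background is a share of single windows, so the count of genes is not on its scale. The count of windows includes overlapping windows of Nfkb2 that share a match. An ISRE core match was found for Nfkbia (from −53 to −45 bases from the start) and a GAS match for Nfkb2 (from −148 to −140), each in 1 window. A match is a description of letters, not of binding.

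The windows of the 4 members below hold kB matches close to the start or overlapping each other, and the capitals mark these matches. All are written 5′ to 3′ on the gene's strand. Nfkb2, at chr19:46304487-46304786 on the plus strand, held 3 matches, of which the first pair overlap (from −39 to −29 bases from the start) and the third ends at −2. Bcl3, at chr7:19822706-19823005 on the minus strand, held 1 match from 2 to 11 bases after the start. Nfkbia, at chr12:55492598-55492897 on the minus strand, held 1 match from −29 to −20. Rel, at chr11:23770920-23771219 on the minus strand, held a pair of overlapping matches from −92 to −82. Each overlapping pair, in Nfkb2 and in Rel, is 1 stretch of bases matched at neighbouring positions, not separate sites.
Nfkb2: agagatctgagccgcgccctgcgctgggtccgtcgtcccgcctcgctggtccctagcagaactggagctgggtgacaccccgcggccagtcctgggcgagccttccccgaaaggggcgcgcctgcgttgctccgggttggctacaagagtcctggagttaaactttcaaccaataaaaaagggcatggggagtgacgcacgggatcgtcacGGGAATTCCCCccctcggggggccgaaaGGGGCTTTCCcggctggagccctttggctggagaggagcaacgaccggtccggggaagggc
Bcl3: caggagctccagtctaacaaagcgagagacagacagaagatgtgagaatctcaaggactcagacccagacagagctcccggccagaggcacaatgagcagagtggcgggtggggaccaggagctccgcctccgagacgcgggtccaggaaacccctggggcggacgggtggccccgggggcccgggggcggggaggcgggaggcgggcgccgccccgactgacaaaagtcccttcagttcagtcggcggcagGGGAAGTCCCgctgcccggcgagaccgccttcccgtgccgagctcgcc
Nfkbia: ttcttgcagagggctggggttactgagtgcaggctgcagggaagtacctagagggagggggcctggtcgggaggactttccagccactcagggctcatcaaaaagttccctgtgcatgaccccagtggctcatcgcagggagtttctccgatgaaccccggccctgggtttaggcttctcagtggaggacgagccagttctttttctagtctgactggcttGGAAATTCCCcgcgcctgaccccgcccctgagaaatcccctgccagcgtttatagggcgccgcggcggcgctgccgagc
Rel: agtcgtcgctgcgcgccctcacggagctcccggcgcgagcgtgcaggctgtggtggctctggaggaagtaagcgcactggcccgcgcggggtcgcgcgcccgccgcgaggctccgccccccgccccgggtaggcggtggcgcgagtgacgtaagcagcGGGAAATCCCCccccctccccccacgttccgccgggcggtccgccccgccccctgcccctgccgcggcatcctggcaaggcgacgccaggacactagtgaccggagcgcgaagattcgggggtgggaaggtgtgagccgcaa

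Nfkbie held 1 match from −106 to −97, with the letters GGGGGATTCC. The windows of Nfkb2 at 2 later starts overlap each other, and both hold the match GGGACTTTCC, which is 1 site in the genome. No match to any of the 3 motifs was found for Rela or for Nfkbib.

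**Figure D1:**
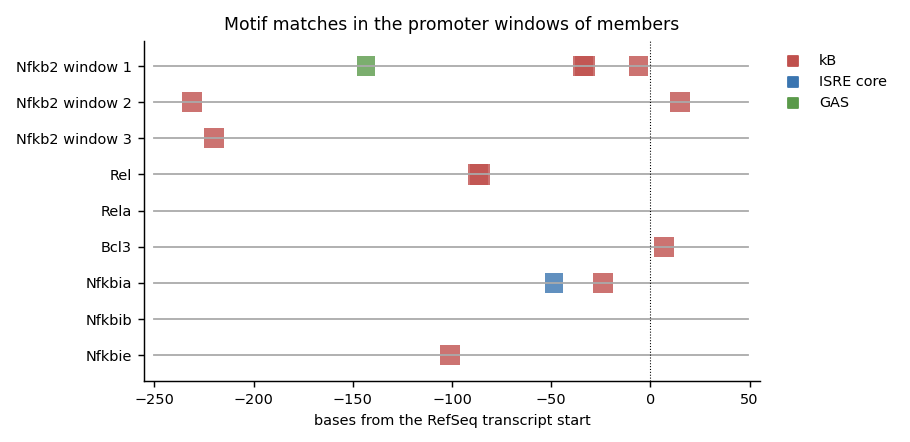
Positions of kB, ISRE core and GAS matches (coloured boxes) in the 9 RefSeq promoter windows of 7 members. The horizontal axis is the distance in bases from the transcript start (dotted line). Matches to kB stand in 7 of the 9 windows.

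Depth was even, with 70555655 to 76923854 counts per library. Tada2b itself was counted at 26.6 ± 1.40 CPM in GFPsg, 32.8 ± 0.53 with guide 1 and 26.95 ± 1.73 with guide 2 (CPM, counts scaled to 1000000 per TMM-scaled library; mean ± SD, n = 3), so its RNA was not lower under the knockout label (log2 change 0.30 with guide 1 and 0.02 with guide 2, edgeR adjusted p = 0.000213 and 0.806). A guide can alter a protein without lowering its mRNA, so these counts do not check that label. The 8 melanocyte markers examined had reads in all groups, and their summed level was 21030 to 21850 CPM in the controls, 5127 to 5368 under guide 1 and 7261 to 7505 under guide 2. Of 10 leukocyte markers 5 to 7 had reads in a group. Their summed level was 3.64 to 3.95 CPM in the controls, 7.00 to 7.41 under guide 1 and 6.19 to 6.47 under guide 2. Cd68 and Lyz2 carried most of it, with Fcer1g in the controls. Of the 4 that passed the filter, 3 rose with both guides against GFPsg, among them Cx3cr1, which passed it through the guides. Fcer1g went the other way, from 0.936 CPM in GFPsg to 0.391 and 0.429 with guides 1 and 2. The defining markers Ptprc and Itgam were at 0 reads in all 9 libraries, where 3 counts would be at most 0.045 CPM. The summed level of 8 fibroblast and endothelial markers was 10.3 to 12.7 CPM in GFPsg and 24.98 to 28.2 CPM over both guides. These markers moved in both directions. With both guides against GFPsg, Col1a2, Pdgfrb and Des rose (log2 change 1.68, 1.45 and 1.33) and Pdgfra did not differ (−0.04, edgeR adjusted p = 0.869). The endothelial marker Vwf fell (−2.11, from 1.21 CPM in GFPsg), and Cdh5 was at 0 reads in 2 of the 3 groups. The summed level of 6 epithelial markers was 0.824 to 0.855 CPM in GFPsg. It was 0.279 to 0.511 CPM under guide 1 and 0.335 to 0.408 CPM under guide 2. Of the 2 tested with both guides against GFPsg, Cdh1 fell (log2 change −2.03, edgeR adjusted p = 8.18e-06). Krt7 rose (1.37, edgeR adjusted p = 0.0138) and passed the filter through the guides. The part of such cells, and of the lower melanocyte markers, in the results was not tested. In bulk RNA, fewer cells of a type and less RNA per cell cannot be told apart.

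Of the 10 members, 8 rose in the libraries labelled knockout and none fell when the mean of both guides was set against GFPsg, while Nfkbib and Nfkbiz were not called. The change was uneven. Bcl3 rose 13.7-fold, Nfkb1 rose 2.08-fold, and the other 6 rose by 1.21-fold to 1.73-fold. A call is an adjusted p under 0.05 by edgeR's quasi-likelihood test, with Benjamini-Hochberg adjustment over 17931 genes. By that rule 51.0% of all genes were called in this comparison, 24.7% of all as higher and 26.3% as lower. Beside these shares stand 8 and 0 of the 10 members. The members were chosen with earlier results of these data known, so their counts are a description only. None of the members was lower at an unadjusted p under 0.05 either, and DESeq2 also called 8 higher and 0 lower. The members' median log2 change was 0.54, beside −0.02 for all genes tested. At least 2-fold rises were called for 6.88% of genes and for 2 of the 10 members, Bcl3 and Nfkb1. With library size alone 63.3% of all called genes were higher, against 48.4% with TMM scaling, and 8 members were again called higher.

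**Figure D2:**
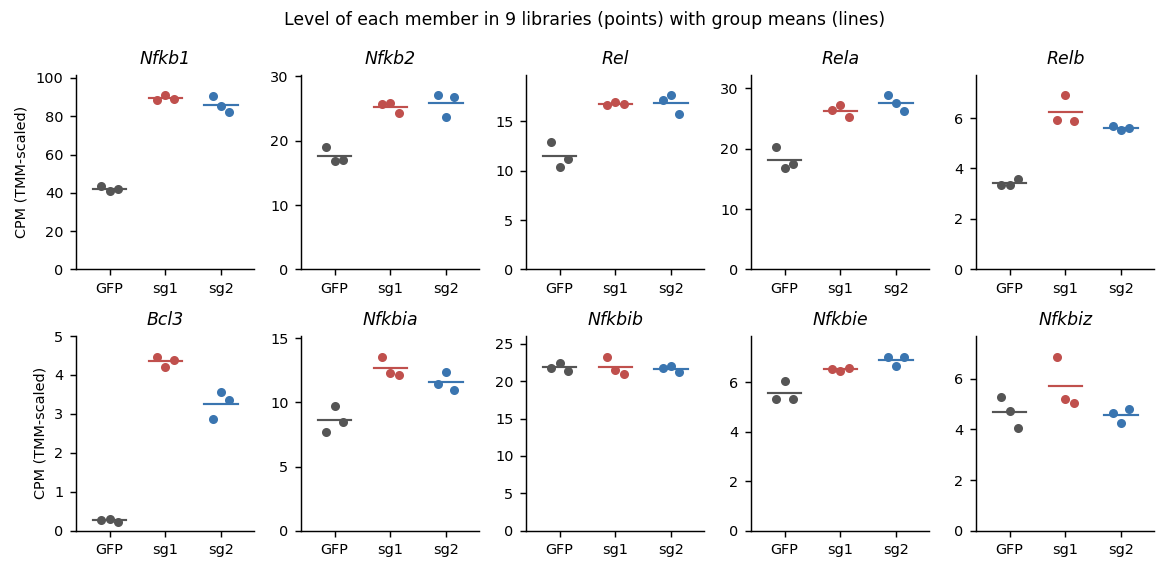
CPM of each member in each of the 9 libraries (points) with the group mean (line), in GFPsg (GFP), Tada2bsg1 (sg1) and Tada2bsg2 (sg2). Each vertical axis starts at 0. For 8 members every GFPsg library lies below every library labelled knockout, and Nfkbib and Nfkbiz overlap. How many of all genes separate without overlap was not counted, so nothing is drawn from the separation. The 51.0% of genes called with both guides against GFPsg is a different measure.

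Among the subunits, Nfkb1 had the largest change. It encodes p105, the precursor of p50 and itself an IkB-like inhibitor (ENSMUSG00000028163, chromosome 3, 135584655 to 135691547 in mm10, the build of all gene positions given here). Its level was 43.5, 41.2 and 41.9 CPM in GFPsg, 88.7, 90.85 and 89.1 CPM with guide 1 and 90.8, 85.1 and 82.0 CPM with guide 2. The 6 libraries labelled knockout thus all lay above the controls by far more than the spread within any group. Nfkb1 thus differed by 1.06 ± 0.04 on the log2 scale (SE; edgeR adjusted p = 4.14e-13).

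Relb, the partner of p52 in the non-canonical pathway (ENSMUSG00000002983, chromosome 7, 19606217 to 19629438), was the least abundant subunit, also per length of exon. It stood at 3.36, 3.33 and 3.57 CPM in GFPsg, at 5.94, 6.895 and 5.86 CPM with guide 1 and at 5.70, 5.54 and 5.62 CPM with guide 2. Guide 1 replicate 2 was the highest library, and no control reached the lowest library labelled knockout. Relb thus differed by 0.79 ± 0.08 on the log2 scale (SE; edgeR adjusted p = 3.7e-07).

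Rela, Rel and Nfkb2 rose by nearly the same factor. Rela encodes p65, the main transactivating subunit (ENSMUSG00000024927, chromosome 19, 5637483 to 5648130). Its level was 20.3, 16.7 and 17.4 CPM in GFPsg, 26.4, 27.2 and 25.2 CPM with guide 1 and 28.8, 27.6 and 26.25 CPM with guide 2, with GFPsg replicate 1 the highest control and no overlap between controls and either guide. For Rela the log2 change was 0.57 ± 0.06 (SE; edgeR adjusted p = 3.84e-07). Rel encodes c-Rel, a subunit best known in lymphocytes (ENSMUSG00000020275, chromosome 11, 23736847 to 23770970). It was counted at 12.9, 10.3 and 11.2 CPM in GFPsg, 16.6, 17.0 and 16.75 CPM with guide 1 and 17.1, 17.6 and 15.7 CPM with guide 2. The controls were lower throughout, and the log2 change was 0.55 ± 0.07 (SE; edgeR adjusted p = 2.39e-06). Nfkb2 encodes p100, the precursor of p52 (ENSMUSG00000025225, chromosome 19, 46304320 to 46312385). Its level was 19.0, 16.8 and 16.9 CPM in GFPsg, 25.7, 25.8 and 24.3 CPM with guide 1 and 27.0, 23.6 and 26.7 CPM with guide 2, again without overlap. The rise came to 0.54 ± 0.06 on the log2 scale (SE; edgeR adjusted p = 4.51e-07). GFPsg replicate 1 was the highest control for Nfkb1, Nfkb2, Rel and Rela.

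Psd, on the opposite strand, shares 299 of the exon bases of Nfkb2 (6.52%), and its reads rose too (log2 change 0.86, edgeR adjusted p = 5.5e-05), from 117 to 193 reads in GFPsg to 248 to 318 with the guides. The strand setting of the counting is not given in the sources used here, so that reads in the shared bases cannot be assigned to either gene. Nfkb2 also shares 531 exon bases with the opposite-strand gene AC114539.1, which was not among the counted genes. Nfkbib shares 314 with Ccer2, which had at most 1 read in a library, and 42 with Sirt2.

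Among the IkB genes, Bcl3 changed most, from at most 21 reads per control library to at least 219 with either guide. Bcl3 encodes a nuclear IkB protein that binds p50 and p52 dimers and can turn them into activators (ENSMUSG00000053175, chromosome 7, 19808462 to 19822770). It was counted at 21, 20 and 17 reads in the GFPsg libraries, at 353, 312 and 342 reads with guide 1 and at 219, 276 and 240 reads with guide 2. In CPM these were 0.284, 0.300 and 0.238 in GFPsg, 4.47, 4.19 and 4.39 with guide 1 and 2.88, 3.56 and 3.35 with guide 2. The 3 groups did not overlap, with guide 1 highest. The log2 change was 3.78 ± 0.15 (SE; edgeR adjusted p = 1.12e-12), and 145 of 17931 genes (0.809%) had a higher one. Over 14 alternatives it ran from 3.70 to 3.86. The antisense gene Gm16175, which shares 161 exon bases with Bcl3, had at most 5 reads in any library. Gm16174, on the opposite strand without a shared exon base, had 22 to 31 reads in GFPsg and 43 to 89 with the guides.

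Nfkbia encodes IkB alpha, the inhibitor that NF-kB induces to end its own response (ENSMUSG00000021025, chromosome 12, 55489410 to 55492647). Its level was 7.69, 9.73 and 8.50 CPM in GFPsg, 13.6, 12.3 and 12.2 CPM with guide 1 and 11.4, 12.4 and 10.9 CPM with guide 2. The controls stayed below both guides, with GFPsg replicate 2 the highest of them. The difference was 0.49 ± 0.08 on the log2 scale (SE; edgeR adjusted p = 3.42e-05).

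Nfkbie encodes IkB epsilon, a slower feedback inhibitor (ENSMUSG00000023947, chromosome 17, 45555703 to 45563169). It stood at 5.34, 6.04 and 5.30 CPM in GFPsg, at 6.545, 6.465 and 6.57 CPM with guide 1 and at 7.02, 6.66 and 7.02 CPM with guide 2. This was the smallest rise that was called, with a gap between the highest control and the lowest guide library that was smaller than the range of the controls. On the log2 scale it came to 0.27 ± 0.07 (SE; edgeR adjusted p = 0.00366).

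Nfkbib and Nfkbiz were not called. Nfkbib encodes IkB beta, which is not under the same rapid feedback (ENSMUSG00000030595, chromosome 7, 28758251 to 28767512). Its level was 21.8, 22.4 and 21.3 CPM in GFPsg, 23.3, 21.45 and 20.97 CPM with guide 1 and 21.7, 22.0 and 21.2 CPM with guide 2, and all 3 groups overlapped. The log2 change was 0.00 ± 0.05 (SE), with a 95% interval from −0.10 to 0.09 (edgeR adjusted p = 0.942). Nfkbiz encodes IkB zeta, a nuclear cofactor that is induced by Toll-like and interleukin receptors (ENSMUSG00000035356, chromosome 16, 55811375 to 55838899). It was counted at 5.28, 4.74 and 4.04 CPM in GFPsg, at 6.875, 5.215 and 5.04 CPM with guide 1 and at 4.67, 4.245 and 4.80 CPM with guide 2. Guide 1 replicate 1 stood apart at the top, and the controls overlapped both guides. The log2 change was 0.12 ± 0.11 (SE; 95% interval −0.09 to 0.34; edgeR adjusted p = 0.374).

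The guides were then set against GFPsg one at a time, a pair of comparisons that share the control libraries. With guide 1, 8 members were called higher and none lower, where 23.8% and 24.5% of all genes were (49.3% of the called genes higher, and 63.1% with library size alone). With guide 2 the numbers were again 8 and 0, against 22.1% and 23.0% of genes (49% of the called genes higher, and 65.1% with library size alone). Neither comparison gave a member lower at an unadjusted p under 0.05 or with DESeq2. Bcl3 rose by 3.98 ± 0.16 on the log2 scale with guide 1 and by 3.57 ± 0.16 with guide 2 (SE). Nfkb1 rose by 1.09 ± 0.04 and 1.03 ± 0.04, Relb by 0.86 ± 0.09 and 0.72 ± 0.09, and Nfkbia by 0.55 ± 0.09 and 0.42 ± 0.09. For Rela the changes were 0.53 ± 0.07 and 0.60 ± 0.07, for Rel 0.55 ± 0.08 with each guide, and for Nfkb2 0.52 ± 0.06 and 0.55 ± 0.06. Each of these 7 genes had an edgeR adjusted p of 0.00061 or below with either guide.

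Nfkbie rose by 0.23 with guide 1 (edgeR adjusted p = 0.0245) and by 0.31 with guide 2 (adjusted p = 0.00417). Leaving out GFPsg replicate 1 (0.20, adjusted p = 0.0801) or GFPsg replicate 3 (0.21, adjusted p = 0.0735), or the filter on low counts (0.23, adjusted p = 0.0579), ended the guide 1 call, and adjusted p ran from 0.00345 to 0.0801 over its 15 alternatives. Nfkbiz was at 0.29 ± 0.12 with guide 1 (edgeR adjusted p = 0.0699) and at −0.04 ± 0.13 with guide 2 (adjusted p = 0.842). Of 15 alternatives, 5 made the guide 1 value of Nfkbiz a call, among them without GFPsg replicate 1 and without guide 1 replicate 3. Without guide 1 replicate 1 the value was 0.14 (adjusted p = 0.362), and adjusted p ran from 0.0259 to 0.362 over the 15. No setting called Nfkbib.

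**Figure D3:**
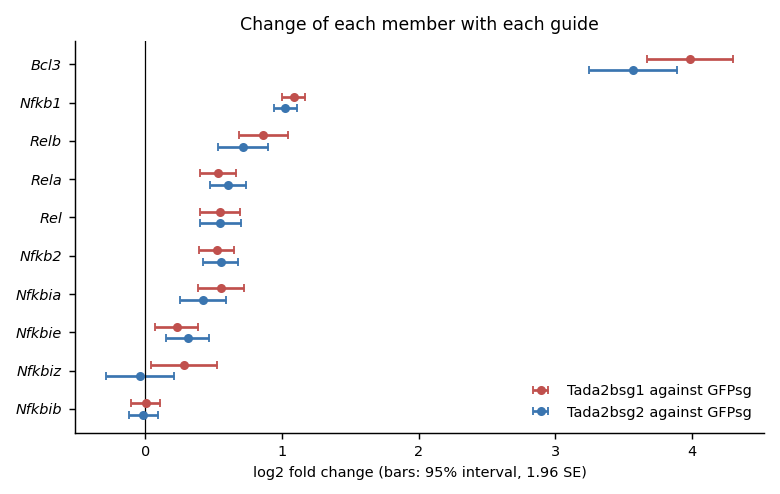
Log2 fold change of each member with guide 1 and with guide 2 against GFPsg (points) with 95% intervals (bars), ordered by the change with both guides. Bcl3 stands at 3.98 and 3.57, Nfkb1 near 1.0, and Nfkbib at 0.

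The guides were compared with each other directly. No member was called by edgeR in guide 2 against guide 1, where 2.66% of all genes were called higher and 1.02% lower. At an unadjusted p under 0.05 none was higher and 2 were lower, Bcl3 and Nfkbiz, and DESeq2 called 1, Bcl3, as lower. Bcl3 was lower with guide 2 by a log2 difference of −0.41 ± 0.11 (SE; 95% interval −0.63 to −0.19; edgeR adjusted p = 0.0527). It passed the threshold in 5 of 15 alternatives, among them without GFPsg replicate 1 (adjusted p = 0.0437) and in a fit of guide 1 and guide 2 libraries alone (adjusted p = 0.0440), with adjusted p from 0.0314 to 0.252. For Nfkbiz the difference was −0.32 ± 0.12 (95% interval −0.57 to −0.08; edgeR adjusted p = 0.195). The libraries of the guides did not overlap for Relb, Nfkbie and Nfkbiz either, but how many of all genes show this was not counted, so nothing is drawn from it. The differences for Relb (−0.15, 95% interval −0.32 to 0.02) and Nfkbie (0.08, 95% interval −0.07 to 0.23) had intervals that include 0. For Nfkb1 the interval ran from −0.14 to 0.02, for Rela from −0.06 to 0.20, for Nfkb2 from −0.10 to 0.15, for Rel from −0.14 to 0.15, for Nfkbia from −0.29 to 0.03 and for Nfkbib from −0.12 to 0.09.

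To compare levels between genes, CPM were divided by the length of each gene's merged exons. The merged exons cover all annotated transcripts, at 12.061 kilobases for Nfkb1 and 4.584 for Nfkb2. Which transcripts these cells use was not tested, so the order of genes depends on these lengths. In CPM alone Nfkb1 was the highest member in GFPsg, at 42.2, with Nfkbib at 21.85 and Nfkb2 at 17.6. Per length of exon, Nfkbib was the most abundant member in GFPsg, at 10.1 ± 0.25 CPM per kilobase. Rela (5.90 ± 0.62) and Nfkbia (5.37 ± 0.64) followed and overlapped each other, then Nfkb2 (3.83 ± 0.27), Nfkb1 (3.50 ± 0.10), Nfkbie (1.83 ± 0.14) and Rel (1.54 ± 0.18). Nfkbiz (0.934 ± 0.12) and Relb (0.880 ± 0.03) overlapped, and Bcl3 came last at 0.111 ± 0.01 (mean ± SD, n = 3). The order shifted in the libraries labelled knockout. Nfkb1 passed Nfkb2, at 7.42 ± 0.10 against 5.51 ± 0.19 CPM per kilobase with guide 1 and 7.13 ± 0.37 against 5.62 ± 0.41 with guide 2. Bcl3 reached 1.76 ± 0.06 and 1.32 ± 0.14, overlapping the range of Relb with each guide, and Nfkbiz became the lowest member, at 1.14 ± 0.20 and 0.911 ± 0.06.

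Summed over the 5 subunit genes, the level was 15.65 ± 1.15 CPM per kilobase in GFPsg, 25.3 ± 0.73 with guide 1 and 25.4 ± 0.99 with guide 2, and the ranges of controls and guides did not overlap. Nfkb1 made up 22.4 ± 0.98% of that sum in GFPsg, 29.3 ± 0.59% with guide 1 and 28.03 ± 0.46% with guide 2, while Rela went from 37.7 ± 1.13% to 33.7 ± 0.38% and 35.3 ± 0.71%. The 5 IkB genes summed to 18.3 ± 0.97 CPM per kilobase in GFPsg, 23.0 ± 1.28 with guide 1 and 21.7 ± 0.59 with guide 2. Bcl3 held 0.604 ± 0.06% of the IkB sum in GFPsg, 7.65 ± 0.32% with guide 1 and 6.08 ± 0.59% with guide 2, and the share of Nfkbib was 55.1 ± 1.75%, 43.9 ± 0.31% and 46.1 ± 0.53% (mean ± SD, n = 3). These are RNA levels, and processing of p105 and p100 or destruction of IkB proteins is not measured by them. The sums and shares also depend on the merged exon lengths.

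**Figure D4:**
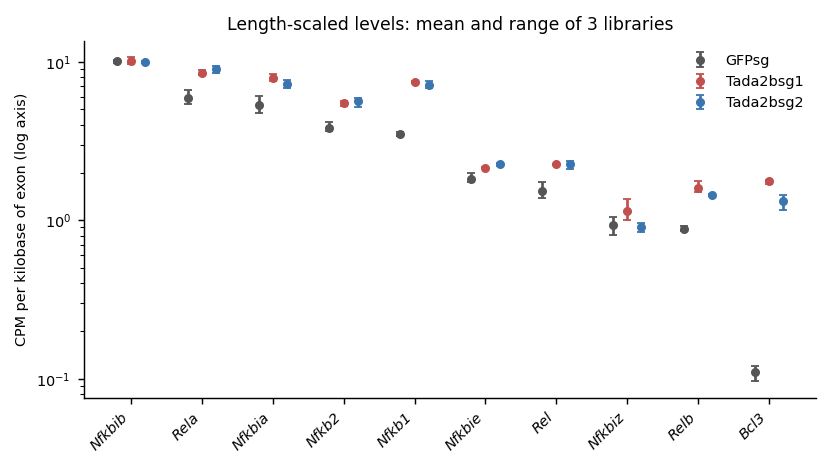
CPM per kilobase of exon (log axis) for each member, ordered by its GFPsg level, as the mean (point) and range (bar) of 3 libraries in each group. Nfkb1 stands below Nfkb2 in GFPsg and above it with both guides, and Bcl3 rises from 0.111 until it overlaps Relb. The order of genes depends on the merged exon lengths.

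Bcl3 and Relb lie 179023 bases apart on chromosome 7. Of 13 annotated genes between them 6 were tested, of which 3 were called higher, 1 lower and 2 not at all, where 24.7% and 26.3% of all genes were called higher and lower. One of the 3, Gm26600, had at most 1 read in a control library and passed the filter only through guide 1. Among them Bcam, a laminin-binding adhesion molecule, was at a log2 change of 2.68 and Apoe, the lipid carrier, at −1.34 (edgeR adjusted p = 2.11e-11 and 1.93e-15), a pair named after their values were seen.

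The genes closest to the most and the least changed member were sought over the 9 libraries, by Euclidean distance of log2 CPM centred on the GFPsg mean, among 9670 genes with a mean of at least 5 CPM over all 9 libraries. Bcl3 and Nfkbib were the members with the highest and the lowest log2 change. For Bcl3 these were Spp1, which encodes osteopontin, at a distance of 0.27, then Cbr2 (0.44), a carbonyl reductase, and Igfbp7 (0.44), a secreted binding protein of insulin-like growth factors. Cbr2 and Igfbp7 stood at 1.46 ± 0.295 and 0.859 ± 0.04 CPM in GFPsg and reached that mean through the guides. Spp1 went from 14.9 ± 1.15 CPM in GFPsg to 215.6 ± 3.91 and 169 ± 4.58 CPM with guides 1 and 2. For Nfkbib they were Rbbp5 (0.07), Ctbp1 (0.07) and Arfip2 (0.09). The genes were selected for their likeness over these same libraries, so their own changes are a description only.

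Other genes of the pathway were taken from lists by role, 95 genes in all, of which 69 passed the filter. With both guides against GFPsg 43 of them rose, 12 fell and 14 were not called, with a median log2 change of 0.22. The rises include Il1r1, Tnfrsf1b and Il6, which passed the filter only through the guides, where they are high. The background of 24.7% higher and 26.3% lower applies to each list. The lists were also chosen with earlier results of these data known, so their counts are a description only.

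Ligands were nearly silent. Of 10 only Tnfsf12, which encodes TWEAK, passed the filter, and it rose from 0.610 ± 0.12 CPM to 0.893 ± 0.08 and 1.09 ± 0.12 CPM (edgeR adjusted p = 0.006). Tnf had at most 9 reads in any library, and Il1b was at 0 reads in all 9. Of 12 receptor genes 9 were tested, of which 8 rose and Tlr4 fell (log2 change −0.34), with a median of 0.99. Among the 8, Il1r1 and Tnfrsf1b did not reach the count minimum in every control and passed the filter through the guides, which leaves 6 of 7 higher without them. Tnfrsf12a, the TWEAK receptor, stood at 49.4 ± 1.51 CPM in the controls and at 162.3 ± 2.72 and 128.4 ± 4.06 CPM under guides 1 and 2. Ltbr, the lymphotoxin beta receptor that signals through the non-canonical pathway, rose by 0.99, and Tlr3, a sensor of double-stranded RNA, by 0.99 on the log2 scale (edgeR adjusted p = 2.69e-12 and 9.11e-11).

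Adaptors were mixed, with 10 higher, 7 lower and 5 not called of 22 tested and a median of 0.03. With guide 2 alone 8 were higher, 3 lower and 11 not called, and with guide 1 alone the numbers were 10, 7 and 5. Irak2, a kinase-like mediator of interleukin 1 signals, rose by 1.54, Card10, a scaffold that links receptors to IKK, by 3.32 from 0.221 ± 0.05 CPM, and Myd88, the adaptor of most Toll-like receptors, by 0.92 (edgeR adjusted p of 7.95e-10 or below for each). The 8 kinase genes had 5 rises and 2 falls, 1 without a call and a median of 0.14. Map3k14, which encodes the kinase NIK of the non-canonical pathway, rose by 1.04, while Ikbke, an IKK-related kinase, was at −0.79 and Ikbkb, the catalytic subunit of canonical IKK, at −0.25 (edgeR adjusted p of 1.16e-04 or below for each). Among 5 genes of the ligase that destroys IkB, 1 was called, the scaffold Cul1 (0.13), and 4 were not. With guide 2 alone Rbx1 was also called, as lower (−0.11, edgeR adjusted p = 0.0292).

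Brakes on the pathway rose in 7 of 9 cases and fell in 1, with 1 without a call and a median of 0.22. With guide 1 alone 5 were higher, 1 lower and 3 not called, and with guide 2 alone the numbers were 6, 1 and 2. Pdlim2, which targets nuclear p65 for destruction, went from 7.33 ± 0.66 CPM to 60.7 ± 1.13 and 52.2 ± 2.73 CPM (log2 change 2.94). Cyld, a deubiquitinase, rose by 0.94 and Nlrc3, a regulator of TRAF6 signals, by 2.30 from 0.366 ± 0.13 CPM (edgeR adjusted p of 3.87e-08 or below for each of the 3). Of 2 tested genes related to the IkB family, Ankrd42 rose (0.33, edgeR adjusted p = 0.0273) and Nfkbil1 was not called (0.44, adjusted p = 0.0575), while Nfkbid, another nuclear IkB gene, was at 0 reads in all 9 libraries.

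Known NF-kB targets numbered 25, of which 13 were tested. Among these 10 rose, each at least 2-fold, Sod2 fell (−0.14) and Bcl2l1 and Ier3 were not called, with a median log2 change of 1.82. Of all genes tested, 6.88% were called at least 2-fold higher. Csf1, the macrophage growth factor, went from 8.77 ± 0.58 CPM in GFPsg to 67.1 ± 2.23 and 60.2 ± 3.63 CPM, and the chemokine gene Cxcl10 from 13.99 ± 0.62 to 63.6 ± 0.73 and 57.1 ± 2.53 CPM. Tapbp, of the peptide-loading complex, rose by 1.51. Cxcl10, Tapbp and other genes on this list are also induced by interferon. Il6 had 3, 1 and 14 reads in the controls, 138, 118 and 156 with guide 1 and 98, 117 and 107 with guide 2, so it passed the filter through the guides, and 9 of 12 were higher without it. The other 12, among them Ccl2, Icam1, Lcn2 and Ptgs2, reached at most 0.118 CPM in any library and were not tested.

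**Figure D5:**
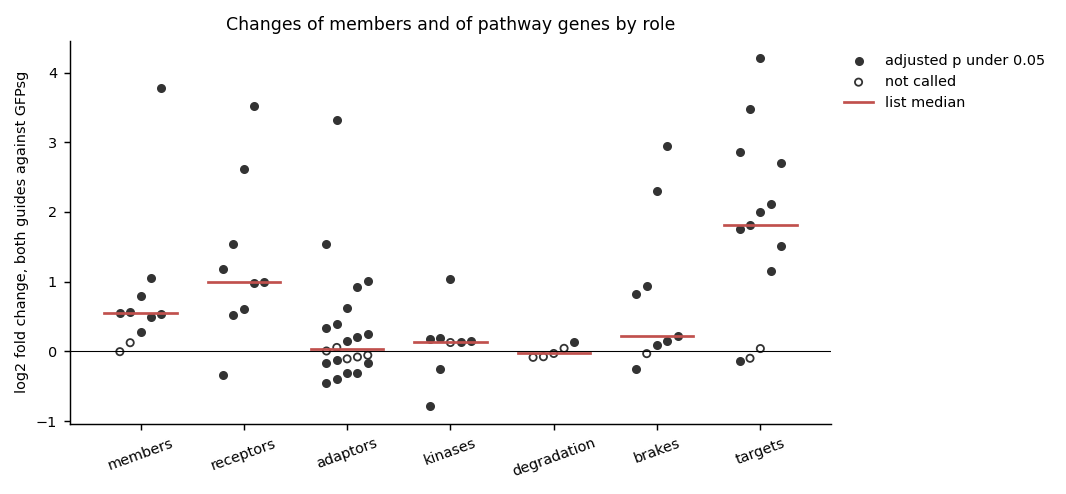
Log2 fold change of both guides against GFPsg for the tested genes of each list (filled points called at an adjusted p under 0.05, open points not called) with the list median (red line). The medians are 0.54 for members, 0.99 for receptors, 0.03 for adaptors, 0.14 for kinases, −0.03 for the ligase genes (degradation), 0.22 for brakes and 1.82 for targets.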

How the data were processed

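RNA-seq was performed on 9 libraries of B16F10 cells, in 3 groups of 3 taken from the titles. The deposited values are raw counts of reads per gene, not normalized by the authors, as the whole numbers and unequal totals show. Per the submitters' processing notes, bcl2fastq, HISAT2 and HTSeq were used with mm10, without versions, annotation or strand setting. Of 54752 identifiers, 54723 matched GENCODE M21, which gave symbols, positions and merged exon lengths. HTSeq by default drops reads that map to several places or to overlapping genes.

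Genes were filtered with filterByExpr (count minimum 10), which kept 17931 genes, scaled by TMM and tested by edgeR 4.0.16 (R 4.3.3) with a quasi-likelihood fit of all 9 libraries and Benjamini-Hochberg adjustment over all genes. Standard errors are the change over the square root of F, and 95% intervals are 1.96 of them to each side. CPM use TMM-scaled library sizes, of 70555655 to 76923854 counts before scaling. Floors of 3 counts cover counting error only. No replicate pair agreed within sampling noise (chi-square per degree of freedom 7.56 to 24.4). The pipeline was tested on simulated data.

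The members and lists were chosen with earlier results of these data known. Named were all members, the 3 called genes of lowest p in each list, the 3 genes nearest to the most and the least changed member, and Tada2b. Any other gene was named after its values were seen. Alternatives were other scalings, no filter, DESeq2 1.42.0, a replicate block, fits of the groups compared alone and each library left out.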

Additional observations from a re-analysis of the deposited data

How the results depend on the processing

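Of 590 member values under the alternatives, 552 kept their direction and side of the threshold, 10 became calls, 3 lost a call and 25 changed sign, all of these last among values that were not called. The 8 calls of the knockout comparison held under every alternative run. In guide 2 against guide 1 the number of genes called, 660 in all, was 1070 without the filter and 335 to 808 with 1 library left out (335, 345 and 399 without guide 1 replicates 3 and 2 and guide 2 replicate 2). Those higher, 477, were 259 to 572 (313 without guide 1 replicate 1), and those lower, 183, were 372 without the filter, 283 with DESeq2 and 76 to 248 with 1 library left out. The members called lower there, 0, were 1 (Bcl3) without the filter, with DESeq2, in the fit of the groups compared alone and with the replicate block, and 0 to 1 with 1 library left out (1 without GFPsg replicate 1).

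Deviations from the group mean correlated at −0.01 to 0.10 between same-numbered libraries and at −0.09 to 0.04 between other-numbered ones. Whether the replicate numbers pair the samples was not tested, and the main fit has no block. The block moved the calls between the guides from 660 to 1705 (979 higher, 726 lower). It changed Bcl3 there and Nfkbiz with guide 1 into calls (edgeR adjusted p = 0.0314 and 0.0287).

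Signs turned as follows. Nfkbib in the knockout comparison was 0.0075 with median-ratio size factors, 0.0799 with library size alone, 0.0095 with DESeq2 and −0.0168 to 0.0254 with 1 library left out. With guide 2 it was 0.0004, 0.0729, 0.0017 and, in the fit of the groups compared alone, 0.0032, and −0.0193 to 0.0168 with 1 left out. With guide 1 it was −0.0315 to 0.0458, and between guides −0.0479 to 0.0295. Nfkbiz with guide 2 was 0.0474 with library size alone and −0.123 to 0.0582 with 1 left out. Between guides, Nfkb2 was −0.0025 to 0.0871 and Rel −0.0327 to 0.0503. Depth limits Bcl3 most, with 17 to 21 reads per control library.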
